A study of Mus musculus with 4 samples.

Results

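Transforming growth factor beta (TGF-beta) is a secreted signalling protein made in 3 isoforms, the products of Tgfb1, Tgfb2 and Tgfb3. Each isoform leaves the cell bound to its own propeptide in a latent complex, which the latent TGF-beta binding proteins tie to the extracellular matrix until it is released. Free ligand is bound by the type II receptor (Tgfbr2), which activates the type I receptor (Tgfbr1), and the type III receptor betaglycan (Tgfbr3) presents ligand to them. The active receptors phosphorylate Smad2 and Smad3, which enter the nucleus with Smad4, while Smad7 is an inhibitor that the pathway itself induces. In mesenchymal cells the pathway is known for driving matrix synthesis and for holding back myogenic and adipogenic differentiation.

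The 10 genes described here are the ligands Tgfb1, Tgfb2 and Tgfb3 and the receptors Tgfbr1, Tgfbr2 and Tgfbr3. With them are Ltbp1 and Ltbp2 of the latent TGF-beta binding protein family (here the latency proteins), the signal carrier Smad3 and the inhibitor Smad7. All 10 were taken by symbol from the 21878 genes of the mRNA values. Their 35 transcripts, of 75959 in all, were summed for each gene. RNA came from C3H10T1/2, a mouse mesenchymal stem cell line started from C3H embryos, in 2 untreated samples (replicates 1 and 2) and 2 samples treated with 20 μM 5-AZA (replicates 101 and 102). 5-AZA, or 5-azacytidine, traps DNA methyltransferases once it is built into DNA, so that methylation is lost as cells divide. The treated cells were exposed for 72 hours and then kept for 21 days in fresh medium, while the time in culture of the untreated cells is not given, so treatment and time in culture cannot be told apart. All samples are of 1 cell line, and whether colonies were picked from the treated cells before sequencing is not stated. The study calls the replicates biological repeats, but nothing says that they came from separate cultures, so p-values measure only the spread between these samples.

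Values are FPKM, that is fragments scaled to transcript length and to the fragments sequenced, so levels of different genes can be set side by side within a sample. FPKM summed to between 328410 and 361664 per sample, and the read depth behind a single value is unknown. Changes are differences of log2(FPKM + 0.1) between 5-AZA and untreated samples fitted with limma over the 13199 genes with a mean of at least 0.1 FPKM, which understates the change of low genes. An adjusted p-value below 0.05 counted as passing the test, and genes that passed and also changed by over 2-fold were called. The median gene tested changed by 0.05 on this log2 scale, by -0.06 after centring each sample on its median and by -0.12 after quantile normalization, and changes are relative to these shifts.

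The cultures changed widely beside these genes. Of 8 skeletal muscle markers, 7 passed the test as higher and Myf6 was listed at 0 in all samples. Their summed level rose from 0.836 and 1.08 FPKM in the untreated samples to 395 and 627 FPKM in the 5-AZA samples. Of 5 adipocyte markers, 4 passed as higher and Lep stayed at 0.0274 FPKM or less, and their sum went from 11.8 and 28.7 to 1008 and 1379 FPKM. Of 8 markers of mesenchymal cells, Vim, Ly6a, Col1a1, Pdgfra, Pdgfrb and Cd44 were present in every sample, the lowest being Cd44 at 20.0 FPKM in untreated replicate 2. Thy1 was low in the untreated samples (0.578 and 0.785 FPKM) and Nt5e was listed at 0 in both. These markers moved both ways, since Thy1 (log2 fold change 3.98), Pdgfra (0.74) and Ly6a (0.73) passed as higher and Vim (-0.87) and Col1a1 (-0.52) as lower, while Pdgfrb and Cd44 did not pass. The immune markers Ptprc, Adgre1 and Cd3e and the endothelial marker Kdr were at or near 0 in every sample, and the immune list summed to between 1.16 and 3.69 FPKM through Cd68. Cd68 itself passed as higher, and so did Tek and Cdh5 of the 4 endothelial markers, whose sum went from 0.536 and 0.296 to 1.79 FPKM in both 5-AZA samples. The part of these other cell states in the results below was not tested, and in bulk RNA a change in the number of cells of a type and a change in RNA per cell cannot be told apart.

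Of the 10 TGF-beta genes, all were tested, 6 passed the test as higher after 5-AZA and 1 as lower. Over all genes tested, 18.6% passed as higher and 5.93% as lower, or 2449 against 783 genes. That split was 2313 against 1850 after centring and 1782 against 2508 after quantile normalization. The members' counts of 6 and 1 were the same under both. These counts were 4 and 0 without the limit of 0.1 FPKM, 4 and 1 with curated NM transcripts only, and 5 and 1 without the mean trend in limma. Over all genes tested under these settings, 1523 and 276 of 17510, 1535 and 397 of 12286, and 2073 and 456 of 13199 passed. By the stricter call, 1 member was higher (Tgfbr3) and 1 lower (Tgfb2), against 13.1% and 1.32% of all genes. The 6 that rose were Tgfb3, all 3 receptors, Ltbp1 and Smad3, and the 1 that fell was Tgfb2. Tgfb1, Ltbp2 and Smad7 did not pass. The median log2 fold change of the members was 0.62, against 0.05 for all genes tested. The members were chosen with earlier results of these data known, so this contrast carries no test. In 7 members both 5-AZA samples lay above both untreated samples and in 1 both lay below, where 36.8% and 25.4% of all genes tested did so.

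**Figure D1:**
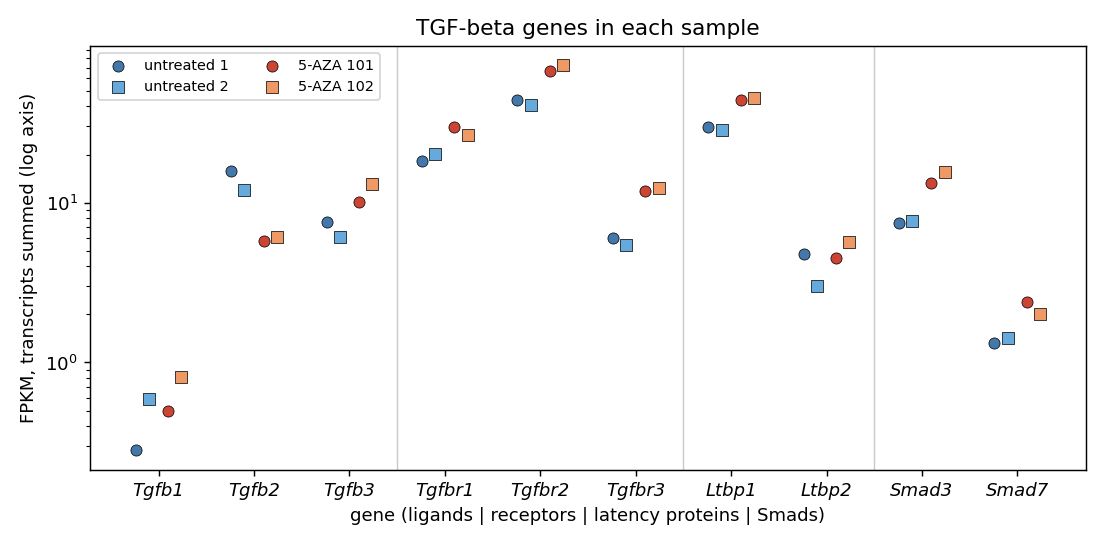
FPKM of each TGF-beta gene, summed over its transcripts, in each of the 4 samples on a log axis, with untreated samples in blue and 5-AZA samples in red and orange. Tgfb2 is the gene whose 5-AZA samples (5.76 and 6.12 FPKM) lie below its untreated samples (15.8 and 12.0 FPKM), while Tgfbr2 is highest in every sample and Tgfb1 lowest.

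These calls rested on both 5-AZA samples. Without 5-AZA replicate 101, 1 member (Smad3) passed as higher and 0 as lower, and without replicate 102, 0 passed in either direction. Over all genes, the number passing as higher was then 995 and 768, and as lower 79 and 111. The lone 5-AZA sample is then assumed to vary like the untreated ones. The log2 fold change of Tgfb2 was -1.16 and -1.25 in these fits, and the direction of every member was the same in them as with all samples. With 2 samples against 2, an exact permutation test cannot give a p-value below 0.333.

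Among the ligands, Tgfb2 was the most abundant before treatment and Tgfb3 after it. Tgfb2, known for its roles in heart and skeletal development, was at 15.8 and 12.0 FPKM in untreated replicates 1 and 2 and at 5.76 and 6.12 FPKM in 5-AZA replicates 101 and 102. Both treated samples were below both untreated ones. The mean went from 13.9 ± 2.70 to 5.94 ± 0.252 FPKM (SD, n = 2), and the log2 fold change was -1.20 (standard error 0.16, 95% interval -1.57 to -0.84, adjusted p = 7.13e-04, limma over all genes). Without the limit on low values, which adds genes near 0 to the fit, its adjusted p was 0.0556. It was 0.123 without 5-AZA replicate 101 and 0.115 without replicate 102.

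Tgfb3, an isoform needed for closure of the palate, moved the other way. It was at 7.58 and 6.09 FPKM in the untreated and 10.1 and 13.1 FPKM in the 5-AZA samples, and the groups did not overlap. It rose by 0.75 on the log2 scale (standard error 0.17, 95% interval 0.36 to 1.15, adjusted p = 0.0131, limma), from 6.84 ± 1.05 to 11.6 ± 2.09 FPKM. The adjusted p was 0.0568 without untreated replicate 2, 0.126 and 0.216 without 5-AZA replicates 101 and 102, 0.140 without the limit on low values and 0.0678 without the mean trend in limma.

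Tgfb1, the isoform most used to treat cells in culture, was the lowest of the 10 genes in both groups. It was listed at 0.282 and 0.592 FPKM in the untreated and at 0.494 and 0.808 FPKM in the 5-AZA samples, and the groups overlapped. Its log2 fold change of 0.51 (95% interval -0.37 to 1.39, adjusted p = 0.387, limma) became -0.57 after quantile normalization, so no direction can be read for it at this level. In the untreated samples its mean of 0.437 FPKM was above that of 16.3% of the genes tested, whose median was 6.25 FPKM.

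The summed FPKM of the ligands did not separate the groups. It was 23.7 and 18.7 in the untreated samples and 16.4 and 20.0 in the 5-AZA samples. What changed was the make-up of this sum. Tgfb2 made up 66.8% and 64.3% of it in the untreated samples and 35.2% and 30.6% in the 5-AZA samples. The share of Tgfb3 went from 32.0% and 32.6% to 61.8% and 65.4%, and that of Tgfb1 lay between 1.19% and 4.03% throughout. The ratio of Tgfb2 to Tgfb3 was thus 2.09 and 1.97 before treatment and 0.569 and 0.467 after it.

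**Figure D2:**
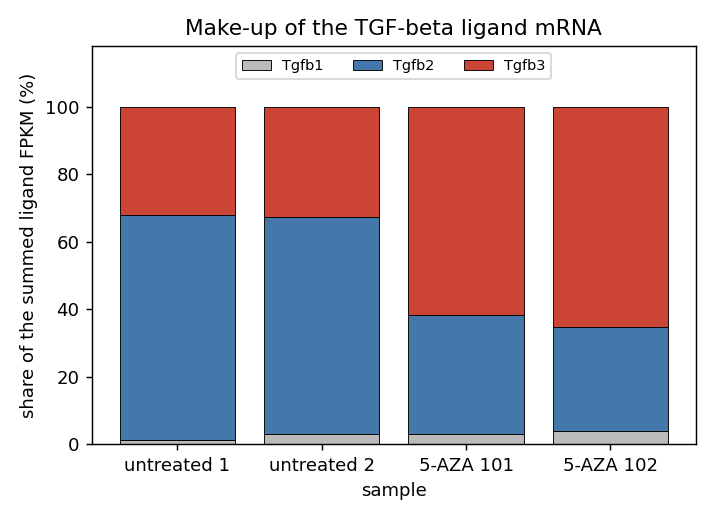
Stacked bars give the percentage of the summed FPKM of the ligands held by Tgfb1 (grey), Tgfb2 (blue) and Tgfb3 (red) in each sample. Tgfb2 holds 66.8% and 64.3% in the untreated samples and 35.2% and 30.6% in the 5-AZA samples, and Tgfb3 takes its place as the largest part.

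The fall of Tgfb2 was seen in each of its 3 transcripts. The curated transcript NM_009367.3 was at 10.2 and 6.92 FPKM in the untreated and 2.88 and 3.78 FPKM in the 5-AZA samples. The predicted XM_006497135.3 went from 4.53 and 3.48 to 2.67 and 1.59 FPKM, and XM_006497136.3 from 1.16 and 1.62 to 0.218 and 0.750 FPKM. Every one of them was lower in both treated samples than in both untreated ones, although none passed when transcripts were tested singly (adjusted p = 0.0858, 0.282 and 0.340, limma over all transcripts).

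RefSeq's promoter windows, from 250 bases before to 50 after a start site on GRCm38.p6, were matched for 7 of the 10 genes, and not for Tgfb3, Tgfbr3 and Smad7. The window of Tgfb2 is shown because this gene fell, and those of Tgfbr1, Tgfbr2 and Smad3 further on because these rose. All are written in the sense of the gene, with the CG pairs that DNA methylation acts on in capitals. Methylation was not measured in these samples. The Tgfb2 window lies at chr1:186705940-186706239 on the minus strand.
Tgfb2: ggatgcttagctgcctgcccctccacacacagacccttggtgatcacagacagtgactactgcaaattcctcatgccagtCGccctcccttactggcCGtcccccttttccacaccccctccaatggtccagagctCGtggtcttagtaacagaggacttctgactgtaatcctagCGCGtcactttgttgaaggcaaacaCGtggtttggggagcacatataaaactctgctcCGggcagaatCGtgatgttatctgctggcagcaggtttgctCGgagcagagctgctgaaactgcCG
It holds 10 CG pairs, and 43.5% of the 32851 promoter windows of the table hold at least as many. Motifs were searched on both strands. They were the TATA box TATAAA, the E-box CACGTG, the cAMP response element TGACGTCA, the AP-1 element TGANTCA and the GC box GGGCGG, and the E-box, the cAMP response element and the GC box each contain a CG pair. The Tgfb2 window holds the TATA box, with its first base at position -31 from the start site, and the E-box at -51. The TATA box is in 13.6% of all windows and the E-box in 7.15%, and neither was in the windows of the other matched members. A match of letters is a description and not a site of binding.

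By the pattern over the 4 samples, Six2 and Tnfrsf13c were among the 3 genes most like Tgfb2. Likeness was the distance between log2 values centred on each gene's mean, which was 0.0634 and 0.138 for them, and 19 of 13198 genes lay within 0.25. Six2, a homeobox factor of progenitor cells, was at 3.57 and 2.71 FPKM in the untreated and 1.27 and 1.41 FPKM in the 5-AZA samples. With 4 samples, such a match shows little beyond a change of like size.

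All 3 receptors rose after 5-AZA, and their summed FPKM went from 68.5 and 66.5 in the untreated samples to 108 and 111 in the 5-AZA samples. The type II receptor Tgfbr2, which binds ligand and is always active as a kinase, was the highest of the 10 genes in every sample. It was at 44.2 and 41.0 FPKM in the untreated and 67.1 and 72.5 FPKM in the 5-AZA samples, with no overlap. It rose by 0.71 on the log2 scale (standard error 0.10, 95% interval 0.48 to 0.94, adjusted p = 9.64e-04, limma). Without 5-AZA replicates 101 and 102 in turn its adjusted p was 0.0579 and 0.0715.

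The rise of Tgfbr2 was seen in both of its transcripts. Variant 1, NM_009371.3, was at 13.8 and 12.5 FPKM in the untreated and 23.8 and 27.6 FPKM in the 5-AZA samples, a log2 fold change of 0.96 that passed over all transcripts (adjusted p = 0.0366, limma). Variant 2, NM_029575.3, was at 30.4 and 28.5 against 43.3 and 44.9 FPKM (log2 fold change 0.58, adjusted p = 0.0620). Variant 1 held 31.2% and 30.5% of the Tgfbr2 level in the untreated and 35.5% and 38.1% in the 5-AZA samples, so the proportions shifted little beside the rise of the sum.

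The type I receptor Tgfbr1, the kinase that phosphorylates the Smads, was at 18.3 and 20.1 FPKM in the untreated and 29.6 and 26.6 FPKM in the 5-AZA samples. The groups did not overlap. It rose by 0.55 on the log2 scale (standard error 0.11, 95% interval 0.29 to 0.81, adjusted p = 0.00817, limma), the smallest change among the members that passed. The test was lost without untreated replicate 1 (adjusted p = 0.0738) and without 5-AZA replicates 101 and 102 (0.122 and 0.0933). It was also lost with curated NM transcripts only (0.0923), without the trend (0.0589) and without the limit on low values (0.0686).

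Betaglycan, the product of Tgfbr3, is a proteoglycan that binds the isoforms and above all TGF-beta 2, for which the type II receptor alone has low affinity. Tgfbr3 was at 6.02 and 5.43 FPKM in the untreated and 11.8 and 12.3 FPKM in the 5-AZA samples, and the replicates of each group were close together. It rose by 1.06 on the log2 scale (standard error 0.13, 95% interval 0.76 to 1.37, adjusted p = 5.45e-04, limma), the largest rise among the members. Its adjusted p was 0.0666 and 0.0728 without 5-AZA replicates 101 and 102. The change was close to the 2-fold line and fell below it under some settings, with log2 fold changes from 0.96 to 1.14 over all alternatives. Its share of the receptor sum went from 8.78% and 8.16% to 10.9% and 11.1%, while that of Tgfbr2 stayed between 61.6% and 65.1%.

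The promoter windows of Tgfbr1 (chr4:47352972-47353271, plus strand, the upstream of its 2 starts in the table) and Tgfbr2 (chr9:116175314-116175613, minus strand) follow.
Tgfbr1: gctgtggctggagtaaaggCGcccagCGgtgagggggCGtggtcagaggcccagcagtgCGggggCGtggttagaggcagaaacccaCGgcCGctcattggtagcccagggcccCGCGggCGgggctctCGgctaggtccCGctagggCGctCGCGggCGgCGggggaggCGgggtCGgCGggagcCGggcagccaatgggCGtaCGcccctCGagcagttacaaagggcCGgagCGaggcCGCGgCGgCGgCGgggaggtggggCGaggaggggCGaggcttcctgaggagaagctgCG
Tgfbr2: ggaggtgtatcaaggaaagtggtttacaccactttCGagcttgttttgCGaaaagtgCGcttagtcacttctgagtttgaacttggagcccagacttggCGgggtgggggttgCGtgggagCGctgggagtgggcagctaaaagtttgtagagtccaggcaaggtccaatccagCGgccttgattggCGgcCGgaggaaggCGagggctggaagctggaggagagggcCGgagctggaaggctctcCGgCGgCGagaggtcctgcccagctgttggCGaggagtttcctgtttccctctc
The Tgfbr1 window holds 34 CG pairs, a number reached by 7.73% of all windows, and 2 copies of GGGCGG, which is in 35.7% of all windows. The Tgfbr2 window holds 15 CG pairs, reached by 34.6% of windows, and none of the other motifs searched. Tgfbr3 has no matched window, and whether CG content goes with the change of a gene was not tested.

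**Figure D3:**
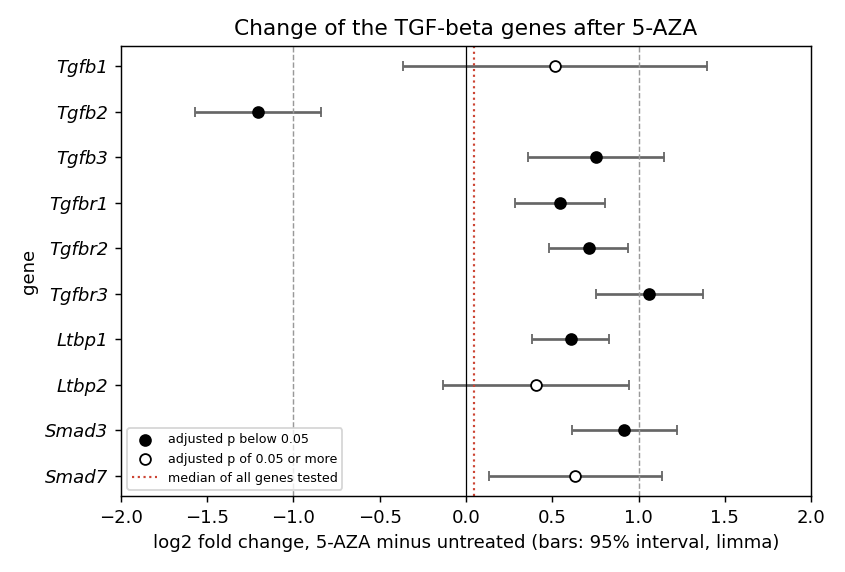
Log2 fold change of each member (5-AZA minus untreated) with its 95% interval from limma; filled points passed at an adjusted p below 0.05, dashed lines mark 2-fold and the dotted line the median of all genes tested. Tgfb2 (-1.20) is the member that lies left of 0, and the intervals of Tgfb1 and Ltbp2 span 0.

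Of the latency proteins, Ltbp1 rose and Ltbp2 did not pass the test. Ltbp1, which binds the latent complex of TGF-beta covalently and anchors it to fibrillin microfibrils, was at 29.9 and 28.5 FPKM in the untreated and 43.7 and 45.4 FPKM in the 5-AZA samples. The groups did not overlap, and the gap between them was far wider than the gap between replicates. It rose by 0.61 on the log2 scale (standard error 0.10, 95% interval 0.38 to 0.83, adjusted p = 0.00214, limma). Without 5-AZA replicates 101 and 102 its adjusted p was 0.0564 and 0.0660. With curated NM transcripts only, which held 4.62% to 6.15% of the Ltbp1 level, the log2 fold change was 0.45 and the adjusted p 0.329.

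The 14 transcripts of Ltbp1 did not move together. In 6 of them both 5-AZA samples were above both untreated samples, in 2 both were below, and in 6 the groups overlapped. The 6 higher ones summed to 9.90 and 9.20 FPKM in the untreated and 30.5 and 28.0 FPKM in the 5-AZA samples. They thus went from 33.1% and 32.2% of the Ltbp1 level to 69.8% and 61.7%. The 2 lower ones, XM_006524350.3 and XM_006524351.2, summed to 15.3 and 15.5 FPKM and then to 10.2 and 12.7 FPKM. These groups of transcripts were formed from their values, so the sums carry no test. How often both 5-AZA samples lay above or below both untreated samples over all transcripts was not counted. For all genes tested it was 36.8% and 25.4%.

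The transcript XM_006524355.3 (variant X10) carried the largest part of the change. It was at 3.75 and 5.73 FPKM in the untreated and 14.6 and 13.7 FPKM in the 5-AZA samples, from 12.5% and 20.1% of the gene to 33.5% and 30.1%. Its log2 fold change of 1.59 was called over all transcripts (adjusted p = 0.0380, limma). XM_006524350.3 (variant X3) was at 6.76 and 7.04 against 3.24 and 4.45 FPKM (log2 fold change -0.84, adjusted p = 0.165). These are predicted models of the same gene. Where they share exons, the split of reads between them depends on how the authors' tool assigned shared reads, which is not described.

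Of the 35 transcripts of the 10 genes, 34 could be tested and 3 passed, XM_006524355.3 of Ltbp1, NM_009371.3 of Tgfbr2 and NM_011578.3 of Tgfbr3. By the adjusted p alone, 2.25% of all transcripts tested passed as higher and 0.366% as lower. Of the 3, 2 were called as higher, those of Ltbp1 and Tgfbr3, and 0 as lower, against 2.1% and 0.262% of the 35557 transcripts tested. Without the adjustment 12 were higher and 3 lower at a p-value below 0.05, where 10.6% and 5.37% of all transcripts were. None was called without any 1 of the 4 samples, so these calls rest on every sample.

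**Figure D4:**
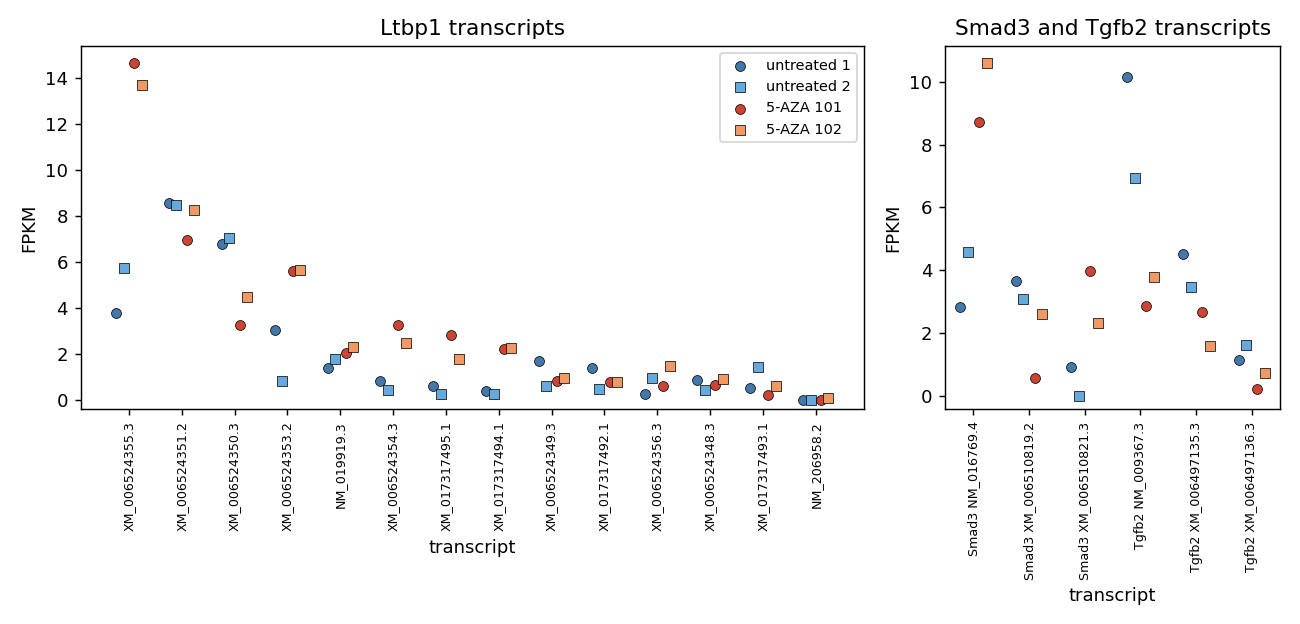
FPKM of each transcript of Ltbp1 (left) and of Smad3 and Tgfb2 (right) in the 4 samples, with transcripts of a gene ordered by their mean. XM_006524355.3 of Ltbp1 lies at 14.6 and 13.7 FPKM in the 5-AZA samples and at 3.75 and 5.73 FPKM in the untreated samples, while XM_006524350.3 lies lower in the 5-AZA samples.

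Ltbp2, a family member that binds matrix but not the TGF-beta propeptide, was at 4.74 and 3.01 FPKM in the untreated and 4.48 and 5.68 FPKM in the 5-AZA samples. The groups overlapped. Its log2 fold change was 0.41 (95% interval -0.13 to 0.95, adjusted p = 0.264, limma). The change was 0.73 without untreated replicate 1 and 0.09 without untreated replicate 2. Its size thus depended on which untreated sample was kept. Ltbp1 was 6.30 to 9.76 times as high as Ltbp2 over the 4 samples.

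Among the Smads, Smad3, the transcription factor that carries the signal to DNA, was at 7.43 and 7.69 FPKM in the untreated and 13.3 and 15.5 FPKM in the 5-AZA samples. The groups were far apart beside their spread. It rose by 0.92 on the log2 scale (standard error 0.13, 95% interval 0.61 to 1.22, adjusted p = 0.00120, limma), from 7.56 ± 0.184 to 14.4 ± 1.60 FPKM. It was the member that kept an adjusted p below 0.05 without 5-AZA replicate 101 (0.0467), and it lost it without replicate 102 (0.0656).

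The transcripts of Smad3 did not move together. The curated NM_016769.4 was at 2.84 and 4.58 FPKM in the untreated and 8.72 and 10.6 FPKM in the 5-AZA samples, and its share of the gene was 38.2% and 59.6% before and 65.7% and 68.2% after treatment. The untreated replicates thus differed widely in this share. The predicted XM_006510819.2 was at 3.66 and 3.08 against 0.578 and 2.61 FPKM, and both treated samples were lower. The predicted XM_006510821.3 was at 0.928 and 0.0191 against 3.97 and 2.33 FPKM, from 12.5% and 0.248% of the gene to 29.9% and 15.01%. No Smad3 transcript passed when tested singly (adjusted p from 0.0826 to 0.410, limma over all transcripts). With NM transcripts only, the log2 fold change of the gene was 1.39 (adjusted p = 0.0137), which is over 2-fold.

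The promoter window of Smad3 lies at chr9:63757945-63758244 on the minus strand.
Smad3: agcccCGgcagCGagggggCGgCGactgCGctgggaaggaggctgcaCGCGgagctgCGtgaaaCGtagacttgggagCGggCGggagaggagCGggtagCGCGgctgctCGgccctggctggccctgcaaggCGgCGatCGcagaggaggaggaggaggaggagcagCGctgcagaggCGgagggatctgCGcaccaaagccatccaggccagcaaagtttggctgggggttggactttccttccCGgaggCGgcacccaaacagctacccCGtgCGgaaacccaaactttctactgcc
It holds 25 CG pairs, reached by 18.4% of all windows, and 2 copies of GGGCGG.

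Smad7, the inhibitor that blocks the type I receptor, was at 1.32 and 1.43 FPKM in the untreated and 2.38 and 2.00 FPKM in the 5-AZA samples. Both treated samples were above both untreated ones, but the adjusted p of its log2 fold change of 0.63 (95% interval 0.13 to 1.13) was 0.0703 (limma). It passed without the trend in limma (adjusted p = 0.0493), and quantile normalization reduced the change to 0.16. The ratio of Smad3 to Smad7 was 5.64 and 5.37 in the untreated and 5.57 and 7.79 in the 5-AZA samples, so the groups overlapped in this balance.

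In order of level, the untreated samples had Tgfbr2, Ltbp1, Tgfbr1, Tgfb2, Smad3, Tgfb3, Tgfbr3, Ltbp2, Smad7 and Tgfb1, from a mean of 42.6 to 0.437 FPKM. Smad3 and Tgfb3 were the neighbours whose replicates overlapped. In the 5-AZA samples the order was Tgfbr2, Ltbp1, Tgfbr1, Smad3, Tgfbr3, Tgfb3, Tgfb2, Ltbp2, Smad7 and Tgfb1, from 69.8 to 0.651 FPKM, and Tgfbr3 and Tgfb3 overlapped. Tgfb2 fell from the 4th to the 7th place, and the first 3 and the last 3 places stayed as they were.

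The wider pathway was read from lists of genes other than the members. Of 12 other latency and activation genes, 11 were tested, 5 passed as higher and 1 as lower, and 5 did not pass, with a median log2 fold change of 0.20. Over all genes tested, 18.6% passed as higher and 5.93% as lower. All 5 of the list that passed as higher were called, against 13.1% of all genes called higher. Itgb6, a subunit of the integrin that frees latent TGF-beta in epithelia, went from 0.0771 and 0.0625 to 0.829 and 1.35 FPKM (log2 fold change 2.78, adjusted p = 5.53e-04, limma). Thbs1, a matrix protein able to activate latent TGF-beta, went from 3.79 and 3.38 to 16.5 and 20.8 FPKM (2.34, adjusted p = 1.36e-05). Fbn1, the fibrillin that holds latent complexes, went from 37.7 and 31.6 to 102 and 112 FPKM (1.62, adjusted p = 1.83e-05). Lrrc32, a cell surface anchor of latent TGF-beta, rose by 1.90 and Ltbp4 by 1.69, both from low levels of 0.486 FPKM or less.

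Itgav, the alpha subunit shared by the integrins that activate TGF-beta, fell by 0.60 on the log2 scale, from 47.9 and 45.7 to 30.5 and 30.9 FPKM (adjusted p = 0.00204, limma). Its partner Itgb8 was at 5.40 and 5.35 against 6.37 and 6.02 FPKM, did not pass and was picked out after its values were seen. Emilin1 and Furin, which act on the maturation of the proTGF-beta chain, had log2 fold changes of -0.21 and -0.18 (adjusted p = 0.498 and 0.358), and Fbn2 one of 0.20 (adjusted p = 0.429). Of this list Nrros was below the limit on low values. Without that limit, or after quantile normalization, 4 of the list passed as higher and 1 as lower, and Ltbp4 was lost. With a limit of 1 FPKM or with NM transcripts only, 3 passed as higher and 1 as lower. Itgb6 and Ltbp4 were below that limit of 1 FPKM and so were not tested under it. Over all genes, 1589 of 10800 passed as higher and 749 as lower with the limit of 1 FPKM. With NM transcripts only, 1535 and 397 of 12286 did. Without 5-AZA replicate 101, 3 of the list passed as higher and without replicate 102, 2 did, and 0 passed as lower in either case.

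Of 22 other receptors and signalling genes, 21 were tested, 4 passed as higher, 2 as lower and 15 did not pass, and their median log2 fold change was 0.01. The shares that passed were near the 18.6% and 5.93% of all genes tested. Without the limit on low values 2 passed as higher and 1 as lower. Acvrl1, a type I receptor best known from endothelial cells, was called, from 0.186 and 0.129 to 1.57 and 1.87 FPKM (log2 fold change 2.83, adjusted p = 1.76e-04, limma). So was Pmepa1, an inhibitor that TGF-beta induces, at 0.592 and 0.511 against 1.28 and 1.30 FPKM (1.10, adjusted p = 0.0145). The others that passed were picked out after their values were seen. They were the co-receptor Eng (0.80) and the repressor Skil (0.94) among the higher, and the repressor Tgif1 (-0.78) and the decoy receptor Bambi (-0.82) among the lower. Smad4, the partner that Smad2 and Smad3 share, was at 26.8 and 23.9 against 24.9 and 26.3 FPKM, and Smad2 had a log2 fold change of -0.29 (adjusted p = 0.139), and both were picked out in the same way. Abundant genes of the list that did not pass were Strap (log2 fold change 0.20), Smurf2 (0.24), Fkbp1a (-0.14) and Ppm1a (0.01). Without 5-AZA replicate 101 or 102, 1 of the list (Acvrl1) passed. After centring or quantile normalization the number that passed was 4 higher and 4 lower, or 2 and 2. Over all genes these numbers were 2313 and 1850, or 1782 and 2508.

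Of 20 genes known to respond to TGF-beta in mesenchymal cells, 19 were tested, 9 passed as higher, 3 as lower and 7 did not pass, with a median log2 fold change of 0.34. Over all genes tested, 18.6% passed as higher and 5.93% as lower. The 6 called genes were all higher, against 13.1% of all genes called higher and 1.32% lower. Tgfbi, a matrix protein named for its induction by TGF-beta, went from 0.564 and 0.889 to 17.7 and 21.2 FPKM (log2 fold change 4.59, adjusted p = 2.77e-06, limma). Tagln, an actin-binding protein of smooth muscle, went from 0.530 and 0.321 to 10.3 and 13.5 FPKM (4.53, adjusted p = 5.47e-06). Igfbp3, an IGF-binding protein, went from 0.0642 and 0.0125 to 1.30 and 1.65 FPKM, and Cnn1, a calponin, from 0 and 0.0212 to 1.23 and 1.07 FPKM. Itga11 rose by 1.66 on the log2 scale but was low, at 0.128 and 0.0822 FPKM untreated against 0.457 and 0.647 FPKM with 5-AZA. Angptl4 rose by 1.41 on that scale. Tagln and Cnn1 are also genes of smooth muscle, and Angptl4 also belongs to fat metabolism.

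The most abundant response genes were lower or did not pass. Fn1, fibronectin, fell from 323 and 320 to 184 and 227 FPKM (log2 fold change -0.65, adjusted p = 0.00397, limma) and Lox, the enzyme that crosslinks collagen, from 316 and 298 to 215 and 183 FPKM (-0.63, adjusted p = 0.00314). Postn was at 767 and 744 against 801 and 620 FPKM (adjusted p = 0.657), and Tsc22d1 at 364 and 386 against 293 and 339 FPKM (adjusted p = 0.137). Picked out after their values were seen, Ctgf (0.70), Klf10 (0.64) and Col4a1 (0.45) rose on the log2 scale and Snai2 (-0.37) fell. Cdkn2b was listed at 0 in every sample. After centring or quantile normalization 5 of the list passed as lower, and 9 and 8 as higher. Over all genes, 1850 and 2508 then passed as lower, against 783 in the main fit. Without the limit on low values 4 passed as higher (Tgfbi, Tagln, Cnn1 and Igfbp3) and 0 as lower, and without the trend in limma 7 and 1 (Lox) did. Without 5-AZA replicates 101 and 102, 3 of the list (Tgfbi, Tagln and Cnn1) passed as higher, and 0 and 1 as lower.

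**Figure D5:**
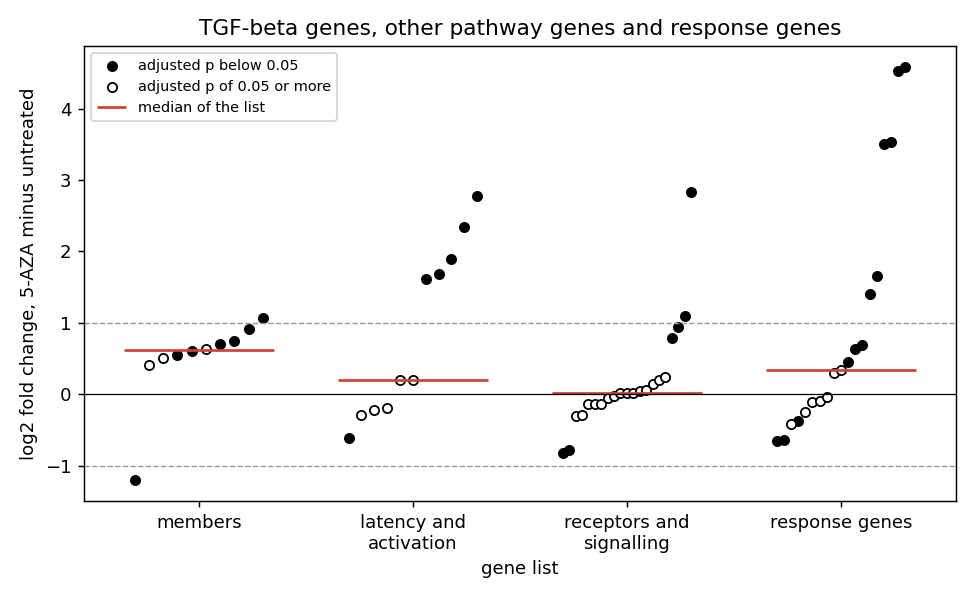
Log2 fold change (5-AZA minus untreated) of each tested gene, sorted within the members, the other latency and activation genes, the other receptors and signalling genes and the TGF-beta response genes; filled points passed at an adjusted p below 0.05 and red lines are list medians. Members lie mostly between 0 and 1.06 with Tgfb2 at -1.20, and the response genes spread from -0.65 to 4.59.

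The files also list KEGG pathways beside each gene, and 8 of the 10 members carry the TGF-beta signaling pathway, all but Tgfbr3 and Ltbp2. Looked up after the values were seen, the other 76 genes of that pathway, which include the BMP and activin branches, had 58 tested, of which 12 passed as higher and 2 as lower, again close to the 18.6% and 5.93% of all genes tested. Their median log2 fold change was 0.07, near that of all genes tested.

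Circular RNAs, which arise when a splice site is joined back to an earlier one, were listed for 5 of the 10 genes. There were 11 of them among 4295, of which 7 came from Ltbp1, and 8 were seen in 1 sample only. They are given in RPM, reads across the joined splice sites scaled to library size, and all values were whole multiples, within a tolerance of 0.01, of a step of 0.0106 to 0.0108 RPM. That step was inferred from the values and taken as 1 read, which makes the fewest reads listed in a sample 2. The circRNA_1934 of Ltbp1 was the only member circRNA seen in all samples, at 0.0968 and 0.225 RPM in the untreated and 0.0969 and 0.256 RPM in the 5-AZA samples, or 9, 21, 9 and 24 reads. The groups overlapped, whereas the linear Ltbp1 level rose. The circRNA_1933 of Ltbp1 had 4 reads in each untreated sample and was listed at 0 in both 5-AZA samples. Over all circRNAs such reads numbered 13282 and 13388 in the untreated and 10905 and 10448 in the 5-AZA samples. At 2 to 5 reads in a sample, circRNA_1933 and the remaining 9 were too few to compare.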

How the data were processed

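RNA of 2 untreated and 2 5-AZA samples was analysed. The authors removed ribosomal RNA, made stranded libraries and trimmed the reads with Trimmomatic; the submitters' processing notes also name HISAT2, Bowtie2 2.2.9, eXpress 1.5.1 and the build mm9, without their roles. Of the circRNAs whose host gene has GRCm38.p6 bounds, 98.2% lay inside them, so the listed coordinates were not taken as mm9 and are not printed. The authors deposited FPKM per mRNA transcript and RPM per circRNA. Deposited lncRNA values were not used here.

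FPKM were summed per gene, and log2(FPKM + 0.1) was fitted with limma 3.58.1 (lmFit, eBayes with trend) in R 4.3.3 on genes with a mean of at least 0.1 FPKM, in place of the count model named in the paper, which cannot be run on FPKM. P-values were adjusted by Benjamini and Hochberg's approach over all 13199 genes, or over all 35557 transcripts. The fit was also run on simulated data whose planted changes were larger than that of any member. That run cannot show how changes of the members' size are recovered. FPKM keep no read counts, so the precision of a value is known only from its replicate. Intervals are at 95%.

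The members and gene lists were chosen with earlier results of these data known. Named beside the members were called genes of each list, up to 6 per direction, up to 4 of the most abundant genes not called, and the 3 genes most like the called member of largest change. Other pseudocounts, limits, scalings, transcript choices and the omission of each sample were tried. Promoter sequences are from RefSeq (GRCm38.p6). Some genes of the lists and of the named-gene rule are not reported here.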

Additional observations from a re-analysis of the deposited data

Results flagged for a closer look

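The circRNA_4164 of Tgfbr2 was set apart because it was seen in both 5-AZA samples, at 0.0323 and 0.0319 RPM, and in neither untreated sample, in the circRNA values, which entered no test. Each value stands for 3 junction reads, and circRNAs with fewer than 2 reads in a sample are listed at 0, so the difference was not tested.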

How the results depend on the processing

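No paired analysis was possible because the groups share no replicate numbers. Every member kept its direction under every alternative run, except that the log2 fold change of Tgfb1 became -0.57 with quantile normalization. All genes called higher (1724) became 875 with a pseudocount of 1 FPKM, 845 with a limit of 1 FPKM on the mean and 1041 with quantile normalization. Those called lower (174) became 86 with that pseudocount, 83 without a limit and 886 with quantile normalization. Members called higher became 0 with a pseudocount of 1 FPKM, centring or quantile normalization and 2 with NM transcripts only. Without a limit on low values, 0 members were called lower and 0 passed as lower. Other pathway genes called higher (7) became 4 with that pseudocount, 3 with the limit of 1 FPKM and 4 with NM transcripts, and 1 was called lower with quantile normalization. Response genes called higher (6) became 3 with the limit of 1 FPKM. Genes below that limit were not tested under it. Member transcripts called (2) became 1 with a pseudocount of 1 FPKM or centring, and 0 with a pseudocount of 0.01 FPKM, no limit, quantile normalization or no trend. With NM transcripts only, the mean share of Tgfb2 in the ligand sum was 53.6% untreated and 21.3% with 5-AZA, and that of Tgfb3 43.4% and 74.6%. Leaving out each sample in turn gave 733 to 1617 genes called higher and 52 to 184 lower, 0 to 1 members called in each direction, 0 to 6 members passing as higher and 0 to 1 as lower, 3 to 7 pathway and 3 to 6 response genes called higher, and 0 member transcripts. The cause of these shifts was not tested. FPKM without counts leave the depth behind low values such as those of Tgfb1 unknown.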
